A study of Mus musculus with 12 samples.

Results

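The comparison described here sets the untreated mouse cochlea of postnatal day (P) 4 against that of P7. Its members were chosen by the labels alone, as the 3 libraries named P1 untreated, from tissue of P4, and the 3 named P4 untreated, from tissue of P7. The table of normalized counts holds 11 libraries, of which these are 6, and GEO describes 12 samples in all, of which replicate 2 of the P4 treated group is not used here. The day in a group's name is the day of tamoxifen, and the tissue was taken 72 h later. Below, groups are called by the age of the tissue, P4 and P7, and libraries by their replicate number. Of the 27754 genes in the table, 18400 had a mean of at least 10 normalized counts over the 11 libraries and were tested.

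All 6 pups carried 1 copy of a β-catenin allele whose exon 3 is flanked by loxP sites, β-catenin-flox(Exon3)/+, and no Cre, so the allele was not expected to recombine. "Untreated" does not mean without drug. Their mothers were injected intraperitoneally with 100 μl of tamoxifen at 50 μg/μl, and the pups received it in the milk, as did the treated littermates, which also carried Sox2-CreER. The strain was a mix of C57BL/6 and CD1. Each library held RNA from the 2 ears of 1 pup, and the epithelium had been separated with Cell Recovery Solution from the mesenchyme and neurons below it, so that hair cells (HCs) and supporting cells (SCs) were meant to remain.

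The organ of Corti turns sound into nerve impulses. Inner HCs release glutamate onto the auditory nerve, outer HCs change length to amplify vibration, and SCs hold HCs in place, recycle potassium and secrete part of the tectorial membrane that lies over the hair bundles. In mice, hearing begins in the second postnatal week, and the days before it are those in which HC synapses, mechanotransduction and the ion composition of the cochlear fluids mature and in which SCs lose most of their ability to divide.

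The 6 libraries summed to between 41.2 × 10⁶ and 42.6 × 10⁶ normalized counts. Across tested genes, Pearson's r of log2(normalized count + 1) was 0.967 to 0.973 between libraries of the same age and 0.937 to 0.949 between ages. The libraries differed in sex as well as in age. *Xist*, the RNA that silences an X chromosome in female cells, was at 16, 3030 and 2794 normalized counts in P4 libraries 1, 2 and 3 and at 33, 32 and 39 in the P7 libraries. *Ddx3y*, on the Y chromosome, was at 3041, 12 and 10 in P4 libraries and at 2255, 2088 and 2367 in P7 libraries. Thus P4 libraries 2 and 3 came from female pups, and P4 library 1 and all P7 libraries from male pups. The study's methods state that all samples were sequenced together in 1 lane. The labels give no litter or dissection day, so a difference between them that went with age cannot be told apart from age.

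In the fit across all 18400 genes with limma, 1726 genes (9.38%) were called higher and 1933 (10.5%) lower at P7. A gene was called where its Benjamini-Hochberg adjusted p stayed below 0.05 and the higher age exceeded the lower by more than 25%. More than 2-fold higher or lower were 706 and 694 of them, more than 4-fold 228 and 206, and more than 16-fold 37 and 26. The median log2 fold change over all tested genes was -0.02. The values of the 3 P4 and the 3 P7 libraries did not overlap for 7593 genes (41.3%). These shares are the background for the gene groups that follow, and log2 fold changes are given as P7 minus P4 with their standard error (SE). With the level of *Xist* as a covariate, 940 genes were called higher and 867 lower. Set against the 3 P7 libraries, P4 library 1, which had no female level of *Xist*, lay on the same side as the call for 1725 of the 1726 higher and 1932 of the 1933 lower genes, with medians of 0.82 and -0.76 on the log2 scale. That library was itself 1 of the 3 behind each call. Calls that ended in the fit with *Xist* are given below for many gene groups, but not for every gene. Both female pups were P4, and *Xist* varied within an age mainly at P4. The age difference in that fit thus leans on P4 library 1. A call lost there need not mean a smaller change. The log2 fold change went from -2.30 to -2.52 for *Ccnb1* and from -2.34 to -2.04 for *Aqp1*, and both lost their calls.

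**Figure D1:**
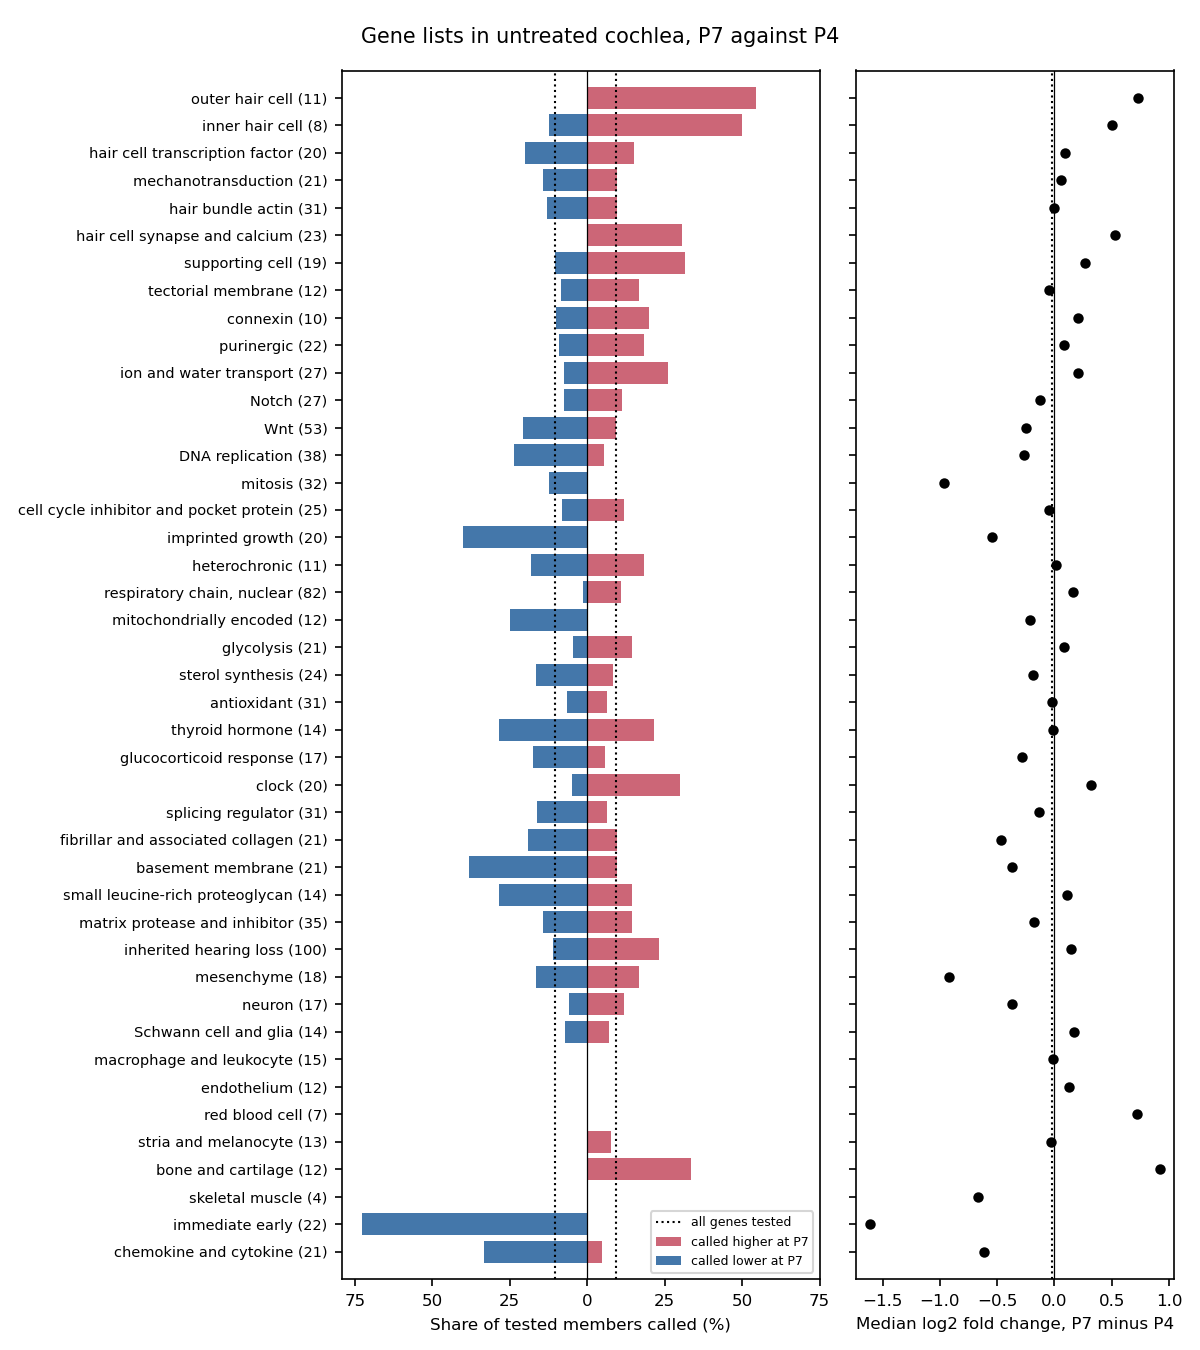
For each list of genes, the left panel shows the percent of tested members called higher (right) or lower (left) at P7, with dotted lines at the shares over all tested genes, 9.38% and 10.5%. The right panel shows the median log2 fold change (P7 minus P4) of the members, which runs from -1.61 for immediate early genes to 0.92 for bone and cartilage markers.

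Outer HC markers stood out among the lists. Of the 11 tested, 6 were called higher and 0 lower, all 11 had a positive log2 fold change, and their median was 0.73. *Ocm*, which encodes oncomodulin, a calcium buffer of outer HCs, was at 1116, 1177 and 873 normalized counts at P4 and at 10452, 11695 and 12617 at P7. The 2 ages were far apart, with a log2 fold change of 3.46 (SE 0.51, adjusted p = 0.00137). *Slc26a5* encodes prestin, the motor protein that makes outer HCs contract. Its values were 442, 562 and 228 at P4 and 2759, 3679 and 3914 at P7 (log2 fold change 3.15, SE 0.47, adjusted p = 0.00158). Every P7 library was well above every P4 library for both genes.

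The transcriptional regulators of the list followed. *Ikzf2*, which encodes Helios, a regulator of the outer HC program, was at 327, 301 and 317 normalized counts at P4 and at 766, 839 and 712 at P7, a log2 fold change of 1.29 (SE 0.16, adjusted p = 0.000506). *Lbh*, a transcriptional cofactor enriched in outer HCs, was at 326, 303 and 320 at P4 and at 1367, 1434 and 856 at P7 (1.91, SE 0.27, adjusted p = 0.00123). The P4 values of these genes lay within 30 counts of each other, below all P7 values. A further 2 members were called and are named here after their values were seen. *Chrna9*, a subunit of the nicotinic receptor through which efferent fibres inhibit outer HCs, had a log2 fold change of 0.80 (adjusted p = 0.00392), and the aquaporin *Aqp11* one of 0.73 (adjusted p = 0.00212). *Chrna10*, the partner subunit of *Chrna9*, was not called, and its groups overlapped (0.35, adjusted p = 0.174). Without P4 library 2, which had the highest P4 value of several of these genes, all 11 members were called, and without any other single library 6 were. The same number of members, 6, was called higher with *Xist* as a covariate.

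**Figure D2:**
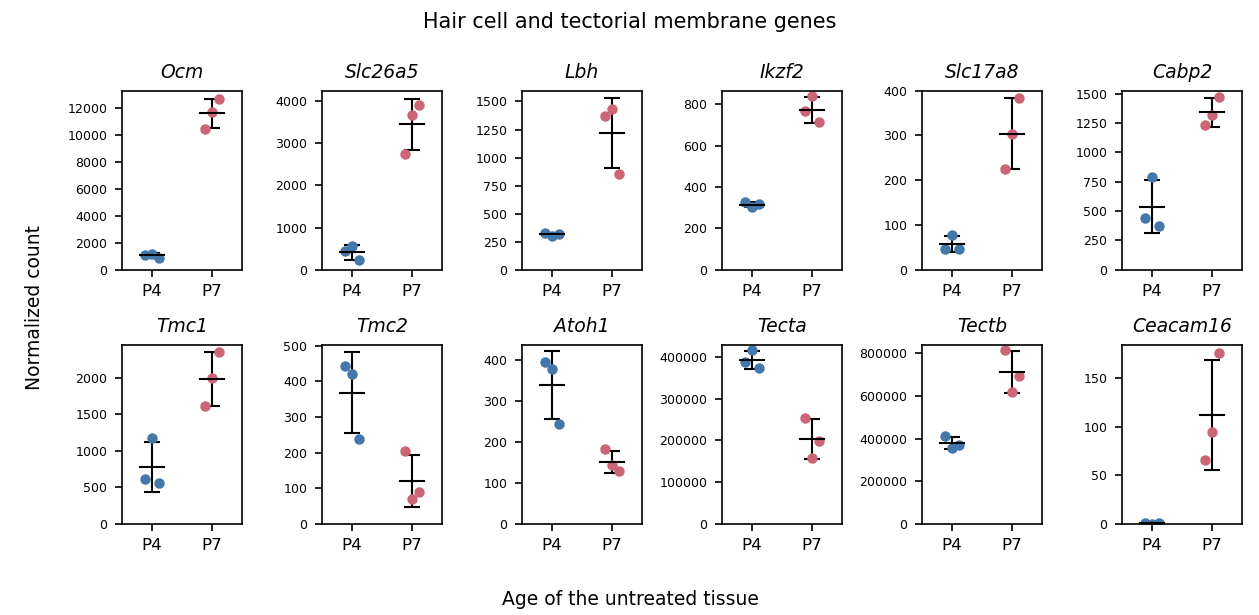
Normalized counts of 12 genes of hair cells and the tectorial membrane in untreated tissue of P4 (blue) and P7 (red); points are libraries, horizontal lines group means and bars the SD (n = 3). *Ocm*, *Slc26a5*, *Lbh*, *Ikzf2*, *Slc17a8*, *Cabp2*, *Tmc1*, *Tectb* and *Ceacam16* were higher at P7 without overlap, and *Tmc2*, *Atoh1* and *Tecta* lower.

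Among 8 inner HC markers, 4 were called higher and 1 lower, with a median of 0.50. *Slc17a8* encodes VGLUT3, which loads glutamate into the synaptic vesicles of inner HCs. It was at 47, 78 and 47 normalized counts at P4 and at 225, 303 and 383 at P7, with no overlap (log2 fold change 2.39, SE 0.33, adjusted p = 0.00101). *Atp2a3*, a calcium pump of the endoplasmic reticulum, had a log2 fold change of 1.13 (adjusted p = 0.0159). *Otof*, which encodes otoferlin, the calcium sensor of vesicle release, was at 7002, 10304 and 4764 at P4 and at 11515, 11126 and 13083 at P7 (0.76, SE 0.21, adjusted p = 0.0294). *Fgf8*, a signal that inner HCs send to pillar cells, had a log2 fold change of 0.60 (adjusted p = 0.0337), and *Slc7a14*, which encodes a lysosomal transporter, one of -0.71 (adjusted p = 0.0401). Of these, *Slc17a8* alone was called in every fit that left out 1 library, and 1 member was called higher without P4 library 1, P4 library 3 or P7 library 3. The largest adjusted p in those fits was 0.0964 for *Otof*, 0.0631 for *Atp2a3*, 0.116 for *Fgf8* and 0.118 for *Slc7a14*. *Otof*, *Fgf8* and *Slc7a14* were not called with *Xist* as a covariate either (adjusted p = 0.125, 0.147 and 0.114), which left 2 members called higher and 0 lower.

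Genes of synapses and calcium handling in HCs were called in 1 direction. Of 23 members, 7 were called higher and 0 lower, with a median of 0.53. *Cabp2* encodes a calcium-binding protein that keeps the calcium channels of HCs open. It was at 443, 791 and 375 normalized counts at P4 and at 1231, 1318 and 1467 at P7 (log2 fold change 1.39, SE 0.27, adjusted p = 0.00595). *Cacna2d2*, an auxiliary subunit of those channels, was at 403, 363 and 309 at P4 and at 727, 781 and 800 at P7 (1.11, SE 0.21, adjusted p = 0.00485). Neither gene overlapped between the ages. The pore subunit *Cacna1d* was at 1027, 1092 and 813 at P4 and at 1573, 1509 and 1395 at P7 (0.62, SE 0.18, adjusted p = 0.0376), and it lost its call when any library but P4 library 2 was left out (largest adjusted p = 0.127). Of the buffers other than *Ocm*, *Pvalb* had a log2 fold change of 0.56 (adjusted p = 0.0818) and *Calb1* of -0.30 (adjusted p = 0.136). Between 4 and 7 members were called higher when single libraries were left out, with 4 without P4 library 3, P7 library 1 or P7 library 3. Only 3 were called with *Xist* as a covariate, where *Cacna2d2* (adjusted p = 0.0548) and *Cacna1d* (adjusted p = 0.212) were lost.

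Transcription factors of HC development went both ways, with 3 of 20 called higher, 4 lower and a median of 0.09. *Atoh1*, the factor that starts HC differentiation, was at 397, 378 and 244 normalized counts at P4 and at 182, 143 and 129 at P7. All P7 values lay below all P4 values (log2 fold change -1.14, SE 0.26, adjusted p = 0.0127), and the call was lost without P4 library 1 or P7 library 3 (largest adjusted p = 0.0506). *Gfi1* (0.19, adjusted p = 0.476) and *Pou4f3* (0.28, adjusted p = 0.177), which act after *Atoh1* and are needed for HC survival, were not called, and their groups overlapped. *Gata3*, needed for the formation and survival of the sensory epithelium, was at 28715, 36642 and 29235 at P4 and at 73263, 70026 and 89187 at P7 (1.30, SE 0.12, adjusted p = 0.000151). *Sox4* was at 11052, 11716 and 11201 at P4 and at 22314, 22157 and 24634 at P7, a separation much wider than the spread of either group (1.02, SE 0.065, adjusted p = 3.05e-05). The related *Sox11* fell over the same days (-0.86, adjusted p = 0.00425), as did *Eya1*, a cofactor of the otic placode (-0.68, adjusted p = 0.00795). These last were named after their values were seen, and *Barhl1*, the remaining member called lower, lost its call when any single library was left out or *Xist* was a covariate (adjusted p = 0.117 with *Xist*). Without P4 library 1 or P7 library 3, 2 members were called lower.

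The mechanotransduction list, 21 members, had 2 called higher and 3 lower, with a median of 0.06. Its members included 2 channel proteins that moved in opposite directions. *Tmc1* encodes the pore-forming subunit of the mature transduction channel. It was at 613, 1173 and 552 normalized counts at P4 and at 1612, 1996 and 2349 at P7 (log2 fold change 1.42, SE 0.28, adjusted p = 0.00626). *Tmc2*, its early counterpart, was at 444, 422 and 237 at P4 and at 204, 69 and 90 at P7 (-1.70, SE 0.50, adjusted p = 0.0348). No P7 value reached the P4 range of either gene. For *Tmc2* the adjusted p was 0.0605 with the replicate number as a block, and the call was lost without P4 library 1, P4 library 2, P7 library 2 or P7 library 3 (largest adjusted p = 0.107). *Whrn*, a scaffold protein of stereocilia tips and ankles, fell (-0.90, SE 0.21, adjusted p = 0.0124). *Loxhd1*, a plasma membrane protein of stereocilia, had a log2 fold change of 1.04 (adjusted p = 0.0177) and was not called without P4 library 1, P4 library 3 or P7 library 1 (largest adjusted p = 0.0635). The list had 1 member called higher without P4 library 3 or P7 library 1, and 2 called lower without P4 library 1, P4 library 2, P7 library 2 or P7 library 3. *Tmc1* was still called with *Xist* as a covariate, but *Tmc2* (adjusted p = 0.0754), *Whrn* (adjusted p = 0.0812) and *Loxhd1* (adjusted p = 0.0841) were not, and 1 member was called in each direction.

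Of 31 genes for the actin core and the shape of the hair bundle, 3 were called higher and 4 lower, with a median of 0.00. *Pls3*, an actin-bundling plastin, fell from 6323, 6207 and 6689 normalized counts at P4 to 3746, 2769 and 2900 at P7 (log2 fold change -1.04, SE 0.11, adjusted p = 0.000339). *Myo15*, the motor that carries elongation factors to stereocilia tips, was at 583, 804 and 343 at P4 and at 1344, 1173 and 1098 at P7 (1.14, SE 0.24, adjusted p = 0.00909). *Espn*, which encodes the actin-bundling protein espin, was at 3663, 4906 and 3219 at P4 and 4286, 4611 and 4742 at P7, and the ages overlapped (0.23, adjusted p = 0.321). *Strc*, which encodes stereocilin of the links between stereocilia, had a log2 fold change of 0.97 (adjusted p = 0.0394, and 0.0519 with the replicate block), and it was called without P4 library 2 but not when any other library was left out (largest adjusted p = 0.115). *Strc* has a near-identical copy in many mammals, so reads may be shared with another locus. Of the list, 1 member was called higher without P4 library 3 or P7 library 3, and 2 lower without P4 library 1 or P4 library 2. No member was called higher and 1, *Pls3*, lower with *Xist* as a covariate, where *Myo15* had an adjusted p of 0.0717 and *Strc* of 0.132.

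SC markers were called higher in 6 of 19 cases and lower in 2, with a median of 0.27. *Lfng*, which encodes the glycosyltransferase Lunatic fringe that tunes Notch receptors, was at 2902, 3589 and 2639 normalized counts at P4 and at 6702, 8554 and 8661 at P7 (log2 fold change 1.39, SE 0.13, adjusted p = 0.000155). The calcium-binding *S100b* was at 2709, 3364 and 2446 at P4 and at 5106, 4991 and 4682 at P7 (0.81, SE 0.19, adjusted p = 0.0129; 0.0525 without P4 library 3). *Cdkn1b* encodes p27Kip1, the cell cycle inhibitor that keeps SCs quiescent. It was at 2960, 2700 and 2648 at P4 and at 3456, 4802 and 4877 at P7 (0.64, SE 0.12, adjusted p = 0.00536). All 3 genes separated the ages. *Sox2*, the factor that marks SCs, was at 8042, 10170 and 8121 at P4 and at 10485, 10101 and 10461 at P7, with overlap (0.25, SE 0.10, adjusted p = 0.111), and *Fgfr3*, a receptor of pillar and Deiters' cells, was not called either (0.43, adjusted p = 0.168). *Prox1*, a factor of Deiters' and pillar cells, had a log2 fold change of -0.72 (adjusted p = 0.0446, and 0.0567 with the replicate block), and the call was kept only without P4 library 3 (largest adjusted p = 0.139 otherwise). Without P4 library 3, 2 members were called higher, and without P4 library 2, 7. Without P4 library 1 or P7 library 2, 0 were called lower. Of the 6 higher calls 1, *Lfng*, was left with *Xist* as a covariate, and 1 lower call. *S100b* (adjusted p = 0.0542), *Cdkn1b* (adjusted p = 0.0565) and *Prox1* (adjusted p = 0.0633) lost theirs in that fit. In whole epithelium, fewer cells of a type and less RNA per cell cannot be told apart.

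Of 27 genes of Notch signaling, by which HCs keep their neighbours from becoming HCs, 3 were called higher and 2 lower, with a median of -0.12. The effector *Hes1* was at 1658, 2751 and 1779 normalized counts at P4 and at 900, 1020 and 1055 at P7 (log2 fold change -1.02, SE 0.17, adjusted p = 0.00294). The coactivator *Maml3* had a log2 fold change of 0.68 (adjusted p = 0.0127; 0.0501 without P4 library 1). *Jag2*, a ligand made by HCs, had one of -0.76 (adjusted p = 0.0412, and 0.0575 with the replicate block; called only without P4 library 3, largest adjusted p = 0.130; 0.0565 with *Xist* as a covariate). The receptor *Notch1* (0.17, adjusted p = 0.557), the SC ligand *Jag1* (-0.10, adjusted p = 0.733) and the SC effectors *Hey2* (0.13, adjusted p = 0.501) and *Hes5* (-0.75, SE 0.57, adjusted p = 0.384) all overlapped between the ages. For *Hes5* the spread was wide, at 737, 571 and 501 at P4 and 502, 336 and 263 at P7. Without P4 library 1, 1 member was called higher and 1 lower, and 1 was called lower without any P7 library. With *Xist* as a covariate 2 members were called higher and 2 lower, and *Jag2* was not among them.

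The tectorial membrane list had 2 of 12 members called higher and 1 lower, the same counts whichever library was left out, with a median of -0.05. *Tectb* was not called with *Xist* as a covariate (adjusted p = 0.085), and the other 2 calls were kept. *Tecta* encodes α-tectorin, the main noncollagenous protein of this membrane. Its values were 389117, 416809 and 374737 normalized counts at P4 and 253951, 157230 and 198329 at P7 (log2 fold change -0.98, SE 0.15, adjusted p = 0.0016). *Tectb*, which encodes β-tectorin, went the opposite way, from 410255, 354031 and 372145 at P4 to 817204, 620983 and 695512 at P7 (0.90, SE 0.21, adjusted p = 0.0119). The ages did not overlap for either tectorin. *Ceacam16*, whose product joins the striated sheet of the membrane late, was at 1, 0 and 1 at P4 and at 66, 95 and 176 at P7 (SE 0.54 on the log2 scale, adjusted p = 0.000146). *Otoa*, which encodes otoancorin that anchors the membrane to the spiral limbus, varied within each age and most at P4, with 31666, 8961 and 47125 at P4 and 41547, 19814 and 32927 at P7 (adjusted p = 0.698).

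Genes for communication among SCs and for the fluids they border were among those that changed. Of 10 connexins, 2 were called higher and 1 lower. *Gjb2*, which encodes connexin 26 of SC gap junctions, was at 19891, 26454 and 20564 normalized counts at P4 and at 53777, 42982 and 47781 at P7 (log2 fold change 1.12, SE 0.12, adjusted p = 0.000314). Its partner *Gjb6*, connexin 30, changed less (0.32, adjusted p = 0.048, and 0.0783 with the replicate block; not called without P4 library 1, P4 library 3, P7 library 1 or P7 library 3, largest adjusted p = 0.161; 0.179 with *Xist* as a covariate). *Gjc1*, connexin 45, fell (-1.09, SE 0.19, adjusted p = 0.00313).

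Purinergic signaling drives the spontaneous activity of the cochlea before hearing, when ATP released by SCs opens the chloride channel TMEM16A. That channel's gene *Ano1* was at 12835, 19279 and 11389 normalized counts at P4 and at 51209, 42777 and 51887 at P7, without overlap (log2 fold change 1.78, SE 0.16, adjusted p = 0.000151). *P2rx2*, an ATP-gated channel, was at 3540, 2967 and 3052 at P4 and at 6232, 5806 and 5923 at P7 (0.91, SE 0.11, adjusted p = 0.00062). *P2ry2* rose as well (0.94, SE 0.17, adjusted p = 0.00372), whereas the adenosine receptor gene *Adora2b* fell (-1.83, SE 0.34, adjusted p = 0.00439). *P2ry1*, the receptor through which ATP acts on SCs, had a log2 fold change of 0.42 (adjusted p = 0.0571), and its groups overlapped. In all, 4 of 22 members were called higher and 2 lower, with a median of 0.08, and 1 was called lower without P4 library 1 or P7 library 1. With *Xist* as a covariate 3 were called higher and 2 lower.

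Among 27 ion and water transport genes, 7 were called higher and 2 lower, with a median of 0.20. The inward rectifier *Kcnj16* was at 563, 1218 and 522 normalized counts at P4 and at 3703, 4629 and 4673 at P7 (log2 fold change 2.60, SE 0.31, adjusted p = 0.000506). *Kcnj10*, which encodes Kir4.1, was at 309, 460 and 347 at P4 and at 980, 3217 and 1350 at P7 (2.14, SE 0.38, adjusted p = 0.00374). Both potassium channels were higher in every P7 library. The water channel *Aqp1*, which fibrocytes also make, went from 3231, 4252 and 5425 at P4 to 670, 1401 and 616 at P7 (-2.34, SE 0.52, adjusted p = 0.0111). *Aqp4*, the water channel of SCs, had a log2 fold change of 0.79 (adjusted p = 0.0574) with overlap. *Aqp1* was not called with *Xist* as a covariate (adjusted p = 0.0932), in which fit 4 members were called higher and 1 lower.

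In the Wnt list, 5 of 53 members were called higher and 11 lower, with a median of -0.25. *Axin2*, a feedback inhibitor used as a readout of canonical Wnt signaling, was at 606, 970 and 687 normalized counts at P4 and at 211, 389 and 227 at P7 (log2 fold change -1.48, SE 0.25, adjusted p = 0.00286). *Dkk3*, a secreted protein of the Dickkopf family, was at 52036, 64053 and 52380 at P4 and at 22509, 15642 and 17403 at P7 (-1.61, SE 0.15, adjusted p = 0.000152). Neither gene's ages overlapped. *Nkd2*, another feedback inhibitor, had a log2 fold change of -1.92 (adjusted p = 0.0177) and was not called without P4 library 1, P4 library 3, P7 library 1 or P7 library 3 (largest adjusted p = 0.0649). Receptors and nuclear factors called lower whichever library was left out, named after their values were seen, were *Fzd1*, with 3745, 5059 and 4869 at P4 and 1888, 2704 and 2244 at P7 (adjusted p = 0.00686), *Fzd2* (-0.61, adjusted p = 0.00196) and *Tcf7l1* (-0.54, adjusted p = 0.00769). *Nkd2* (adjusted p = 0.0719), *Fzd1* (adjusted p = 0.0752) and *Tcf7l1* (adjusted p = 0.0691) were not called with *Xist* as a covariate.

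Of the Wnt genes that rose, 2 encode ligands. *Wnt2* was at 13, 7 and 24 normalized counts at P4 and at 67, 106 and 117 at P7 (log2 fold change 2.75, SE 0.55, adjusted p = 0.00675), and *Wnt2b* at 41, 40 and 21 at P4 and at 95, 94 and 133 at P7 (1.67, SE 0.31, adjusted p = 0.00449). Both were low genes whose ages did not overlap. The secreted Wnt antagonist *Frzb*, named after its values were seen, was at 8937, 7272 and 6751 at P4 and at 16364, 17235 and 17187 at P7 (1.16, adjusted p = 0.00571). *Lgr5*, a target of Wnt and a marker of SCs with progenitor capacity, was at 2715, 2727 and 2041 at P4 and at 3103, 2763 and 3934 at P7 (0.39, SE 0.14, adjusted p = 0.0808). *Ctnnb1* itself was at 21419, 25308 and 19820 at P4 and at 25724, 26307 and 30429 at P7, a change under the fold threshold (0.31, SE 0.097, adjusted p = 0.0444, and 0.0732 with the replicate block). When single libraries were left out, 4 to 6 members of the list were called higher and 7 to 13 lower, with 7 without P4 library 3 or P7 library 3. The counts were 2 higher and 4 lower with *Xist* as a covariate, where *Wnt2b* had an adjusted p of 0.0505 and *Frzb* of 0.0637.

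Genes for cell division were low at both ages. Of 32 genes of mitosis, 4 were called lower and 0 higher, 31 had a negative log2 fold change, and the median was -0.97. The share called, 4 of 32, is close to the 10.5% of all genes. *Ccnb1*, which encodes the mitotic cyclin B1, was at 240, 109 and 224 normalized counts at P4 and at 45, 38 and 27 at P7 (log2 fold change -2.30, SE 0.53, adjusted p = 0.0129; 0.0505 without P7 library 3). *Ccnb2*, cyclin B2, was at 153, 89 and 110 at P4 and at 33, 13 and 23 at P7 (-2.36, SE 0.60, adjusted p = 0.0199). *Mki67*, the gene of the proliferation marker Ki-67, was at 252, 86 and 127 at P4 and at 48, 50 and 60 at P7. These did not overlap, but the P4 libraries differed among themselves and the gene was not called (-1.40, SE 0.58, adjusted p = 0.113). *Cdk1* (-1.11, adjusted p = 0.281) and *Top2a* (-0.82, adjusted p = 0.341) were not called. *Ccnb2* was not called without P4 library 1, P4 library 3, P7 library 2 or P7 library 3 (largest adjusted p = 0.068), and in those fits 1 mitosis gene was called lower. With the replicate block 6 were called. By limma 0 were called with *Xist* as a covariate, where *Ccnb1* had an adjusted p of 0.0531 and *Ccnb2* of 0.0735.

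The promoters of both cyclins are shown because their letters hold an element shared by most of this list. CCAAT, which names the box bound by the factor NF-Y and was searched on both strands in the 250 bases before the transcription start, was present for 23 of the 28 mitosis genes with a RefSeq promoter (82.1%), against 37.5% of all 27025 genes with one. TTTGAA, the letters of the cell cycle genes homology region, was present for 10 of 28 (35.7%), against 18.3%. The bases directly before the RefSeq start in GRCm38.p6 are printed 5′ to 3′ on the strand of the gene, with CCAAT in capitals, for *Ccnb1* at chr13:100786487-100786606 (minus strand) and *Ccnb2* at chr9:70421555-70421674 (minus strand).
Ccnb1: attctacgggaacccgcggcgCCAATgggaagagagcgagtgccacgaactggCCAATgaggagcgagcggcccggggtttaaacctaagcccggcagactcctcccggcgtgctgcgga
Ccnb2: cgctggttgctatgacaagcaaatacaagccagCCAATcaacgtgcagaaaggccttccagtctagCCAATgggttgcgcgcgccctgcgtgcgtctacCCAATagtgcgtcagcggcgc
Within the printed bases, the box occurred 2 times before *Ccnb1*, ending 95 and 63 bases before the start. It occurred 3 times in those before *Ccnb2*, ending 83, 50 and 17 bases before the start. A match is a description of the letters and not evidence that a factor binds there.

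For DNA replication, 9 of 38 members were called lower and 2 higher, with a median of -0.27. *Pcna*, the sliding clamp of DNA polymerase, was at 985, 1639 and 1248 normalized counts at P4 and at 690, 704 and 810 at P7 (log2 fold change -0.78, SE 0.18, adjusted p = 0.0118). *Gins2*, a component of the replicative helicase, fell from 897, 814 and 830 to 381, 483 and 415 (-0.99, SE 0.16, adjusted p = 0.00253). *Pole*, the catalytic subunit of DNA polymerase ε, was the exception in size, with 1464, 2484 and 1454 at P4 and 5018, 5042 and 4998 at P7 (1.53, SE 0.21, adjusted p = 0.00101). Called lower were 4 members without P4 library 1 or P4 library 3 and up to 7 without another library. The *Xist* covariate left 3 called lower and 1, *Pole*, higher, and *Pcna* was lost (adjusted p = 0.122). Of cell cycle inhibitors and pocket proteins, 3 of 25 were called higher and 2 lower. *Cdkn1a*, the gene of the inhibitor p21, was at 2737, 3362 and 3451 at P4 and at 10055, 13702 and 10445 at P7 (1.83, SE 0.23, adjusted p = 0.000663). *Cdkn2d*, the gene of p19Ink4d, which keeps HCs out of the cell cycle, had a log2 fold change of 0.50 (SE 0.096, adjusted p = 0.00519). Both were higher in all P7 libraries. *Cdkn1c*, the gene of p57Kip2, ranged from 9723 to 47965 at P4 and from 6396 to 10211 at P7 (-1.66, SE 0.49, adjusted p = 0.0378), and it was called without P4 library 2 but not when any other library was left out (largest adjusted p = 0.125), nor with *Xist* as a covariate (adjusted p = 0.074).

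Imprinted genes of growth control, most of which fall after birth in many tissues, were called lower in 8 of 20 cases and higher in 0, with a median of -0.54. *Nnat*, which encodes neuronatin, was at 10602, 9189 and 12151 normalized counts at P4 and at 1251, 1780 and 1351 at P7 (log2 fold change -2.87, SE 0.16, adjusted p = 2e-05). *Impact* (-1.03, SE 0.16, adjusted p = 0.00158), *Sgce* (-0.93, SE 0.12, adjusted p = 0.000865) and *Ndn* (-0.61, SE 0.13, adjusted p = 0.00764) also fell, and none of them overlapped between the ages. *Ndn* was not called with *Xist* as a covariate (adjusted p = 0.0778), which left 5 members called lower. *Igf2*, the fetal growth factor, was at 13184, 6920 and 11797 at P4 and at 7597, 6882 and 7595 at P7 and was not called (-0.48, adjusted p = 0.115). Of 11 heterochronic genes, which time development, 2 were called higher (1 whichever library was left out) and 2 lower. *Mycn* (-0.73, SE 0.14, adjusted p = 0.00593) and *Igf2bp3* (-0.73, SE 0.13, adjusted p = 0.00422) fell. *Trim71* rose, with a log2 fold change of 1.21, and kept its call whichever library was left out. *Igf2bp1*, with 2.50, was the other gene called higher and lost its call whichever library was left out. *Lin28b*, which blocks maturation of let-7 microRNAs, was low and overlapped, with 81, 62 and 23 at P4 and 94, 56 and 64 at P7 (0.50, adjusted p = 0.537), as did *Hmga2* (-0.21, adjusted p = 0.764).

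Genes of thyroid hormone action changed in both directions, with 3 of 14 called higher and 4 lower. The hormone is needed for the cochlea to mature before hearing. *Dio2* encodes the deiodinase that makes the active hormone T3, and it was at 110, 53 and 71 normalized counts at P4 and at 887, 405 and 566 at P7 (log2 fold change 2.96, SE 0.48, adjusted p = 0.00229). *Hr*, a corepressor that is itself induced by thyroid hormone, was at 574, 823 and 555 at P4 and at 4605, 3952 and 5535 at P7 (2.86, SE 0.16, adjusted p = 2e-05). The hormone-responsive *Klf9* rose from 2366, 3564 and 3075 to 5195, 6942 and 6090 (1.03, SE 0.17, adjusted p = 0.00226). All P7 values of these 3 genes were above all P4 values.

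Lower at P7 was *Crym*, which encodes a cytosolic T3-binding protein, with 5135, 7403 and 5615 normalized counts at P4 and 1399, 2031 and 1074 at P7 (log2 fold change -2.04, SE 0.26, adjusted p = 0.000765). The receptor gene *Thra*, named after its values were seen, was at 6077, 6645 and 7481 at P4 and at 3443, 3301 and 2235 at P7 (-1.19, SE 0.20, adjusted p = 0.00285). *Thrb*, the receptor needed for hearing, was at 6125, 6030 and 5262 at P4 and at 5867, 5147 and 6124 at P7, with no detectable difference (-0.02, SE 0.12, adjusted p = 0.917). *Trh*, the releasing hormone gene, had a log2 fold change of -2.60 (adjusted p = 0.037) and was called only without P7 library 1 (largest adjusted p = 0.112 otherwise; 0.129 with *Xist* as a covariate). *Dio3*, the deiodinase that inactivates the hormone, was listed at 0 in 5 libraries and at 3 in P7 library 3 and was not tested. Among 17 glucocorticoid-responsive genes, 1 was called higher (*Klf9*) and 3 lower (1 without P4 library 1, P4 library 2 or P7 library 3, and 0 with *Xist* as a covariate). *Tsc22d3* changed by less than the fold threshold (0.29, adjusted p = 0.00921), and the receptor gene *Nr3c1* overlapped (0.09, adjusted p = 0.706).

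Of 20 clock genes, 6 were called higher and 1 lower, with a median of 0.32. *Nr1d1*, which encodes the repressor REV-ERBα, was at 782, 758 and 723 normalized counts at P4 and at 1744, 1821 and 1845 at P7 (log2 fold change 1.26, SE 0.11, adjusted p = 0.000146). *Per3* was at 897, 1273 and 813 at P4 and at 2514, 2795 and 2802 at P7 (1.47, SE 0.17, adjusted p = 0.00046). The output factor *Dbp* went from 2269, 2119 and 2182 to 3577, 4100 and 4230 (0.85, SE 0.11, adjusted p = 0.00071). Every P7 library was above every P4 library for these genes. *Rora* (1.47, SE 0.17, adjusted p = 0.00047) and *Rorb* (1.97, SE 0.16, adjusted p = 9.49e-05), nuclear receptors that drive *Arntl*, rose as well. *Arntl* had a log2 fold change of 0.46 (adjusted p = 0.0238) and was called in the fits without P4 library 2 or P7 library 2 (largest adjusted p in the other 4 fits 0.0876). *Per2* was the member called lower, at 270, 360 and 266 at P4 and 179, 152 and 145 at P7 (-0.90, adjusted p = 0.0443), and it lost its call whichever library was left out (largest adjusted p = 0.131). *Arntl* (adjusted p = 0.113) and *Per2* (adjusted p = 0.185) were not called with *Xist* as a covariate, and 5 members were called higher. The hour of dissection is not given in the labels, so age and time of day cannot be told apart for these genes.

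The *Per3* promoter is shown for its pair of D boxes, the sites of DBP and its relatives. The letters TTATGTAA were present in the 250 bases before the start of 264 of 27025 genes (0.977%) and of 1 of the 17 clock genes with a promoter, which was *Per3*. CCAAT was present in 12 of these 17 (70.6%), and CACGTG, the letters of the canonical E box, in 5 (29.4%), against 6.86% of all genes. In GRCm38.p6 the stretch lies at chr4:151044666-151044885 on the minus strand, with TTATGTAA in capitals.
Per3: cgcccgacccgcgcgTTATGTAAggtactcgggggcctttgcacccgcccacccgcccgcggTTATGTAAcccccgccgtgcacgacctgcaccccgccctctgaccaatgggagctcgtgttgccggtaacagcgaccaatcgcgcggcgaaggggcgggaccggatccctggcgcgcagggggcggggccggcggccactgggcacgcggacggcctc
The D boxes in the printed bases end 198 and 151 bases before the start.

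**Figure D3:**
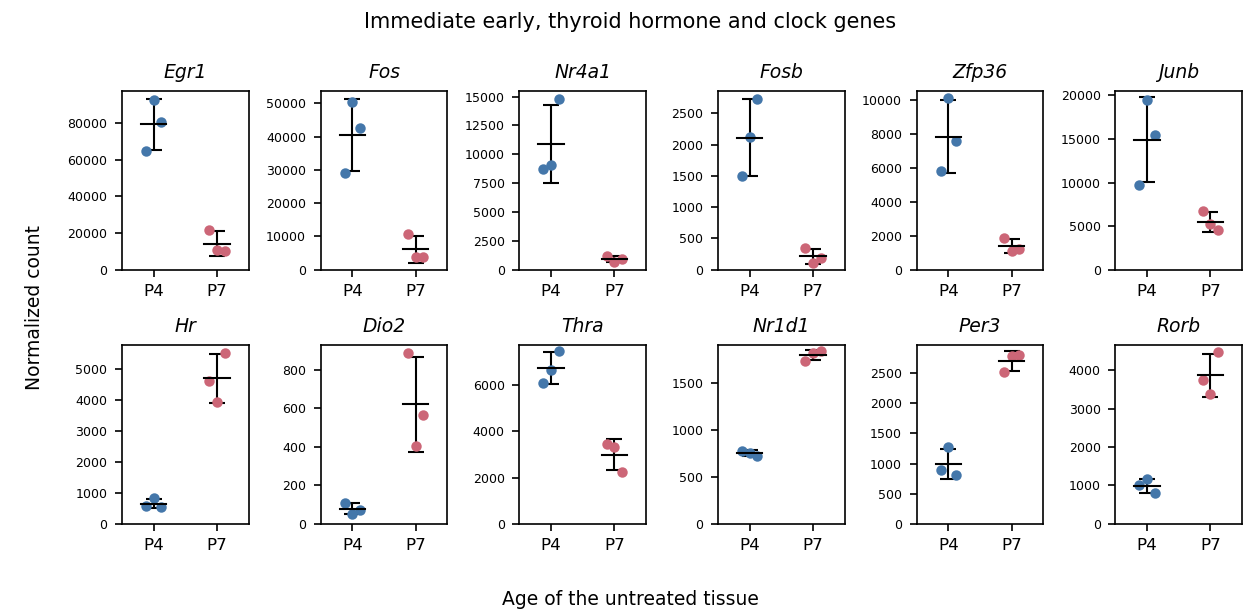
Normalized counts of 6 immediate early genes (top row) and 6 genes of thyroid hormone action and the clock (bottom row) in untreated tissue of P4 (blue) and P7 (red); points are libraries, horizontal lines group means and bars the SD (n = 3). All 6 immediate early genes and *Thra* were lower at P7, and *Hr*, *Dio2*, *Nr1d1*, *Per3* and *Rorb* higher, without overlap.

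Immediate early genes, which respond within minutes to growth factors, activity or stress, were lower at P7. Of 22 members, 16 were called lower and 0 higher, with a median of -1.61, and the sum over the list was 167490 to 267690 normalized counts in P4 libraries and 48920 to 76760 in P7 libraries. *Egr1* was at 64429, 92553 and 80535 at P4 and at 21883, 10531 and 9926 at P7 (log2 fold change -2.57, SE 0.34, adjusted p = 0.000906). *Fos*, a subunit of the AP-1 factor, was at 28970, 50305 and 42479 at P4 and at 10790, 3751 and 3795 at P7 (-2.88, SE 0.45, adjusted p = 0.00181). P7 library 1 stood above the other P7 libraries for both, but below all P4 libraries. *Nr4a1*, an orphan nuclear receptor, went from 8765, 9112 and 14809 to 1226, 636 and 898 (-3.57, SE 0.44, adjusted p = 0.00058). *Zfp36*, which encodes tristetraprolin, a protein that destabilizes messenger RNAs of cytokines, fell from 5788, 10086 and 7588 to 1838, 1097 and 1244 (-2.49, adjusted p = 0.000383), and was named after its values were seen. *Arc*, *Egr3*, *Nr4a2*, *Nr4a3*, *Fosl1* and *Fosl2* were not called. Between 13 and 16 members were called lower when single libraries were left out, and 9, among them *Egr1*, *Fos*, *Nr4a1* and *Zfp36*, with *Xist* as a covariate. These genes also respond to dissection and to the time before lysis, and the labels give neither per library, so handling and age cannot be told apart for them.

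Chemokine and cytokine genes were called lower in 7 of 21 cases and higher in 1, with a median of -0.62. *Cxcl1*, a neutrophil chemokine, was at 507, 512 and 508 normalized counts at P4 and at 10, 22 and 15 at P7, so that the P4 libraries agreed within 5 counts (log2 fold change -5.00, SE 1.0, adjusted p = 0.00699). *Il33*, an alarmin stored in nuclei of epithelial and stromal cells, fell from 1053, 1450 and 880 to 432, 238 and 426 (-1.64, SE 0.26, adjusted p = 0.00196). *Cxcl9* was low and fell further, from 47, 60 and 48 to 6, 10 and 5 (-2.76, SE 0.47, adjusted p = 0.00293). *Ccl28*, a chemokine of mucosal epithelia, rose from 25, 10 and 10 to 136, 59 and 177 (2.95, SE 0.60, adjusted p = 0.00711). The neighbour of *Cxcl1*, *Cxcl2*, was at 25, 39 and 42 at P4 and at 18, 1 and 1 at P7 (-3.07, adjusted p = 0.0483), and was named after its values were seen. It was called in 1 of 6 fits that left out a library. Called lower were 4 members without P4 library 1 or P7 library 2, and 5 without any other library. *Ccl28* (adjusted p = 0.0777) and *Cxcl2* (adjusted p = 0.24) were not called with *Xist* as a covariate, in which fit 4 members were called lower and 0 higher.

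The promoters of *Cxcl1*, *Cxcl2* and *Dusp1*, an immediate early phosphatase that fell from 4364, 7727 and 5484 to 2693, 1946 and 2161 (log2 fold change -1.34, SE 0.28, adjusted p = 0.00748; 0.0778 with *Xist* as a covariate), hold the sites through which inflammatory and cAMP signals are known to act. GGAATTTCC, a site of NF-κB, was present for 2 of the 16 chemokine genes with a promoter (12.5%), against 0.344% of all genes. TGACGTCA, the cAMP response element, was present for 2 of the 17 immediate early genes with a promoter (11.8%), against 1.77%. Capitals mark GGAATTTCC in *Cxcl1* (GRCm38.p6 chr5:90891125-90891244, plus strand) and *Cxcl2* (chr5:90903779-90903898, plus strand) and TGACGTCA in *Dusp1* (chr17:26508473-26508622, minus strand).
Cxcl1: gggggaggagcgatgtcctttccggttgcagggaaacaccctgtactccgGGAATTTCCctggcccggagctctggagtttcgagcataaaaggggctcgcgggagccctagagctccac
Cxcl2: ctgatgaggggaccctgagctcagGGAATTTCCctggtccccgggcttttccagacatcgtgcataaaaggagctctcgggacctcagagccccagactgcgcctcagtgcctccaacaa
Dusp1: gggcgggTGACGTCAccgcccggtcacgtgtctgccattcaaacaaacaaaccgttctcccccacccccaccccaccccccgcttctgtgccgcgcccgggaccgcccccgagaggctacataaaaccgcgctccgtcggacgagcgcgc
The first 2 sites end 62 and 88 bases before the start, and that of *Dusp1* ends 136 bases before it. The 6 promoters printed here were chosen after the values of their genes were seen.

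Genes of energy metabolism showed small fold changes. Of 82 nuclear genes of the respiratory chain, 9 were called higher and 1 lower, 70 had a positive log2 fold change, and the median was 0.16. *Uqcrc2*, of complex III, was at 6247, 6812 and 6632 normalized counts at P4 and at 9666, 10095 and 9593 at P7 (log2 fold change 0.58, SE 0.095, adjusted p = 0.0025), and *Cox5a*, of complex IV, at 5359, 5279 and 5837 and at 8089, 8514 and 7797 (0.57, SE 0.13, adjusted p = 0.0142). With the replicate block 5 members were called higher, and 3 to 5 when single libraries were left out, with 3 without P4 library 1 or P4 library 2. The *Xist* covariate left 2 called higher and 0 lower, with an adjusted p of 0.0598 for *Cox5a*. The share called higher is close to the 9.38% of all genes. The mitochondrially encoded genes went the other way, with 3 of 12 called lower, 0 higher and a median of -0.22. *mt-Atp6* was at 124142, 121587 and 125489 at P4 and at 96028, 98576 and 84683 at P7 (-0.41, SE 0.085, adjusted p = 0.00752; 0.0542 with *Xist* as a covariate, where 1 mitochondrial gene was called). Quantile scaling moved the median of all genes to 0.00 and called 6 of the nuclear and 3 of the mitochondrial genes in the same directions.

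In glycolysis, 3 of 21 were called higher and 1 lower (0 lower without P4 library 2 or P7 library 3; 1 higher and 0 lower with *Xist* as a covariate). The lactate exporter *Slc16a3* rose from 561, 578 and 418 normalized counts to 1541, 1524 and 1424 (log2 fold change 1.54, SE 0.19, adjusted p = 0.000506), whereas *Ldha* (-0.27, adjusted p = 0.142) and the glucose transporter *Slc2a1* (-0.14, adjusted p = 0.353) were not called. Of 24 sterol synthesis genes, 2 were called higher (1 without P4 library 1, P4 library 3, P7 library 2 or P7 library 3, or with *Xist* as a covariate) and 4 lower, among the latter *Idi1*, an isomerase of the pathway (-0.52, SE 0.085, adjusted p = 0.0025). *Hsd17b7*, an enzyme of the same pathway, rose (1.12, SE 0.22, adjusted p = 0.0059). Of 31 antioxidant genes, 2 were called higher and 2 lower (1 lower without P4 library 1, P4 library 3 or P7 library 3; 1 higher and 0 lower with *Xist* as a covariate). They included *Gpx4*, which reduces lipid peroxides, with 11828, 13446 and 13968 at P4 and 17092, 20055 and 18659 at P7 (0.51, SE 0.11, adjusted p = 0.0107), and *Txnrd1*, a thioredoxin reductase, which fell (-0.55, SE 0.12, adjusted p = 0.0113). The regulator *Nfe2l2* had a log2 fold change of -0.55 (adjusted p = 0.0379, and 0.0586 with the replicate block; not called without P4 library 1, P4 library 3, P7 library 1 or P7 library 3, largest adjusted p = 0.132). *Gpx2*, the other member called higher, was called in 0 of the 6 fits that left out a library (largest adjusted p = 0.162). *Txnrd1* (adjusted p = 0.0739), *Nfe2l2* (adjusted p = 0.0698) and *Gpx2* (adjusted p = 0.117) were not called with *Xist* as a covariate.

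Genes of the extracellular matrix changed in both directions. Of 21 fibrillar and associated collagens, 4 were called lower and 2 higher (1 without P4 library 2, P4 library 3, P7 library 1 or P7 library 3, or with *Xist* as a covariate), with a median of -0.47. *Col6a2* was at 2229, 2584 and 2310 normalized counts at P4 and at 842, 672 and 794 at P7 (log2 fold change -1.63, SE 0.19, adjusted p = 0.000434). *Col13a1*, a transmembrane collagen, rose from 419, 495 and 446 to 1966, 2427 and 2609 (2.35, SE 0.21, adjusted p = 0.000148). Basement membrane genes were called lower in 8 of 21 cases and higher in 2, with a median of -0.37. *Nid2*, which encodes nidogen 2, was at 5659, 2442 and 5166 at P4 and at 1219, 622 and 1814 at P7 (-1.90, SE 0.40, adjusted p = 0.00803), and *Lamb3* at 1255, 1790 and 1330 and at 4549, 2825 and 3878 (1.35, SE 0.28, adjusted p = 0.00744). The ages did not overlap for these 4 genes. Called lower were 4 basement membrane genes without P4 library 3 and 7 without P4 library 2 or P7 library 1. Without P4 library 3 or P7 library 3, 1 was called higher, and the *Xist* covariate left 3 lower and 1 higher, *Nid2* and *Lamb3* among them.

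Small leucine-rich proteoglycans, which bind collagen, had 2 of 14 called higher and 4 lower. *Aspn*, which encodes asporin, was at 478, 474 and 521 normalized counts at P4 and at 32, 16 and 11 at P7 (log2 fold change -4.70, SE 0.36, adjusted p = 7.4e-05). *Podn* went from 23095, 19419 and 22227 to 11091, 3919 and 4466 (-1.89, SE 0.39, adjusted p = 0.00716), and *Chad* from 438, 582 and 600 to 1416, 2467 and 1272 (1.62, SE 0.30, adjusted p = 0.00439). *Epyc*, which encodes epiphycan of SCs, was at 96162, 105787 and 121070 at P4 and at 168670, 126105 and 156573 at P7 (0.48, adjusted p = 0.0706, and 0.0356 with the replicate block). Of 35 matrix proteases and inhibitors, 5 were called higher and 5 lower. *Adamts13* (-2.27, SE 0.35, adjusted p = 0.00181) and *Mmp16* (-1.07, SE 0.19, adjusted p = 0.0038) fell, and *Adamts3* rose (1.49, SE 0.17, adjusted p = 0.000395). Called higher were 2 proteases and inhibitors without P7 library 3 and 6 without P7 library 2, and called lower were 3 without P4 library 1, P4 library 3, P7 library 2 or P7 library 3. The *Xist* covariate left 2 called higher and 3 lower.

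Many of these matrix genes are also made by mesenchyme, which the separation was meant to remove. Of 18 mesenchyme markers tested, 3 were called higher and 3 lower, with a median of -0.92, and 1 was called lower without P4 library 1, P4 library 3 or P7 library 1. The sum over that list was 168676 to 204275 normalized counts in P4 libraries and 182559 to 211285 in P7 libraries, and thus overlapped. Its mean log2 level, which weights each marker equally, did not overlap and was lower at P7, with 10.9 to 11.1 in P4 and 10.3 to 10.6 in P7 libraries, and 13 of the 18 members had a negative log2 fold change. *Vim* fell (-0.87, SE 0.11, adjusted p = 0.000775), as did *Postn* (-2.49, adjusted p = 0.024; not called without P4 library 1, P4 library 3, P7 library 1 or P7 library 2, largest adjusted p = 0.084). *Coch*, a fibrocyte gene mutated in inherited deafness, was at 271, 290 and 487 at P4 and at 4248, 1817 and 1512 at P7 (2.75, SE 0.40, adjusted p = 0.00132). *Pou3f4*, the defining factor of otic mesenchyme, was at 1342, 1473 and 1709 at P4 and at 539, 1204 and 556 at P7 (-1.07, adjusted p = 0.175). The part of mesenchyme in the matrix changes was not tested.

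Other cell types that the epithelium could carry along were checked by their markers. Bone and cartilage markers had 4 of 12 called higher (2 without P4 library 2, P4 library 3, P7 library 1 or P7 library 3). Their median was 0.92, with summed levels of 2690 to 12165 normalized counts at P4 and 6494 to 7714 at P7. Their mean log2 level did not overlap and was higher at P7, with 6.49 to 7.38 at P4 and 7.72 to 8.37 at P7. *Ibsp*, a gene of mineralizing bone, rose from 137, 53 and 57 to 2385, 1519 and 1644 (log2 fold change 4.58, SE 0.71, adjusted p = 0.00181), and the osteocalcin gene *Bglap* was at 3, 0 and 1 at P4 and at 40, 19 and 50 at P7 (adjusted p = 0.0217; not called without P4 library 2, P4 library 3, P7 library 1 or P7 library 3, largest adjusted p = 0.0747; 0.14 with *Xist* as a covariate). Of 17 neuron markers, 2 were called higher (1 without P4 library 1, P4 library 2, P7 library 2 or P7 library 3) and 1 lower, and their sum, 49104 to 57388 at P4 and 86491 to 112266 at P7, did not overlap. *Tubb3*, the neuronal tubulin, was at 99, 135 and 511 at P4 and at 537, 880 and 1419 at P7 (2.20, adjusted p = 0.0292; 0.105 at most without 1 library, and not called without P4 library 1, P4 library 2, P7 library 2 or P7 library 3), while *Nefl* (-0.53, adjusted p = 0.275) and *Snap25* (0.11, adjusted p = 0.901) overlapped. The other neuronal gene called higher was *Gata3*, described above as a factor of the sensory epithelium, and the gene called lower was *Rbfox3*, which encodes NeuN, a neuronal splicing regulator (-2.16, SE 0.34, adjusted p = 0.00197). *Gata3* alone was at 28715 to 36642 at P4 and 70026 to 89187 at P7, the larger part of that sum, and the mean log2 level of the list overlapped, at 8.46 to 9.75 and 8.54 to 9.14.

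Glial markers had 1 of 14 called higher (*Fabp7*, 0.82, SE 0.19, adjusted p = 0.0144; 0.0648 with *Xist* as a covariate) and 1 lower (*Egr2*, which is also an immediate early gene, -3.09, SE 0.55, adjusted p = 0.00366). None of 15 macrophage, 12 endothelium, 7 red blood cell and 4 muscle markers tested was called by limma, against 9.38% and 10.5% of all genes, and 1, 4, 1 and 1 of them had an unadjusted p under 0.05. Summed levels were 5966 to 8019 at P4 and 5476 to 8444 at P7 for macrophage, 7647 to 10080 and 3493 to 6974 for endothelium, 2501 to 12834 and 6175 to 25778 for red blood cell markers, and 258 to 282 and 142 to 242 for muscle markers, so that the endothelial and muscle sums did not overlap. The endothelial *Pecam1* fell short of the call (-1.02, adjusted p = 0.0525). Of the 12 endothelial markers, 6 had a positive and 6 a negative log2 fold change, with a median of 0.12. Their mean log2 level overlapped, with 6.56 to 7.57 at P4 and 6.90 to 7.12 at P7. Of 13 stria and melanocyte markers 1 was called higher (*Met*, 0.52, adjusted p = 0.0405), and *Kcne1* of marginal cells was not called (-1.48, adjusted p = 0.0781). *Met* was not called without P4 library 1, P4 library 3 or P7 library 3 (largest adjusted p = 0.129), nor with *Xist* as a covariate (adjusted p = 0.0774). The defining markers of HCs and SCs were present in all 6 libraries, as given above for *Otof*, *Slc26a5*, *Sox2* and *S100b*.

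Splicing regulators had 2 of 31 called higher and 5 lower. *Nova1* was at 71, 87 and 116 normalized counts at P4 and at 25, 18 and 14 at P7 (log2 fold change -2.21, SE 0.38, adjusted p = 0.00313), and *Qk*, which encodes Quaking, fell from 6860, 7746 and 7577 to 4821, 4193 and 3818 (-0.79, SE 0.11, adjusted p = 0.00127). *Rbm24*, a regulator of exons of HC genes, had a log2 fold change of 0.80 (SE 0.19, adjusted p = 0.0142; not called without P4 library 1 or P4 library 3, largest adjusted p = 0.0536). *Srrm4*, the regulator of neural microexons that HCs need, was at 268, 333 and 231 at P4 and at 293, 167 and 201 at P7, with overlap (-0.35, adjusted p = 0.31). Counts per gene hold no exons, so splicing itself could not be read.

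Genes of inherited hearing loss, which cut across the lists above, were called higher in 23 of 100 cases and lower in 11, with a median of 0.14. The 2 shares can be set beside 9.38% and 10.5% of all genes, and 15 to 26 were called higher and 9 to 11 lower when single libraries were left out, with 15 without P4 library 3 or P7 library 3. The *Xist* covariate left 14 higher and 7 lower. Besides *Coch*, *Slc26a5*, *Slc17a8*, *Gjb2*, *Tmc1*, *Tecta* and *Ceacam16*, calls that were kept whichever library was left out, and with *Xist* as a covariate, included the following genes. *Tmprss3*, *Homer2*, *Tnc* and *Adcy1* were named after their values were seen. *Tmprss3*, a serine protease needed for HC survival at the onset of hearing, was at 3918, 4308 and 2996 normalized counts at P4 and at 7799, 7733 and 7208 at P7 (log2 fold change 1.03, adjusted p = 0.00226). *Homer2*, a scaffold protein of stereocilia, rose from 849, 1073 and 760 to 1909, 2378 and 2106 (1.26, adjusted p = 0.00243). *Tnc*, which encodes the matrix protein tenascin-C, fell from 18417, 26507 and 21621 to 3322, 9829 and 4166 (-2.09, SE 0.34, adjusted p = 0.0025). *Adcy1*, an adenylyl cyclase, fell from 1713, 2122 and 2129 to 393, 953 and 600 (-1.70, adjusted p = 0.0052).

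The genes with the largest changes lay mostly outside these lists. The nicotinic receptor subunit *Chrna3* (chr9:55010111-55026562 in GRCm38) was at 2, 13 and 2 normalized counts at P4 and at 282, 505 and 1269 at P7 (log2 fold change 6.82, SE 0.81, adjusted p = 0.000494). Other subunits, looked up after *Chrna3* was seen, rose with it. *Chrnb4*, which neighbours it at chr9:55028154-55048779, went from 180, 188 and 197 to 1439, 1327 and 1854 (3.01, SE 0.24, adjusted p = 7.89e-05), and *Chrna4*, on chromosome 2, from 50, 57 and 95 to 1217, 1543 and 2106 (4.59, SE 0.41, adjusted p = 0.000144). *Tdh*, a threonine dehydrogenase, was at 16, 32 and 11 at P4 and at 804, 2149 and 1433 at P7 (6.16, SE 0.66, adjusted p = 0.000314), and *Sh2d6*, an adaptor, at 22, 87 and 34 and at 1145, 1576 and 1405 (5.04, SE 0.60, adjusted p = 0.000506). *Gabrp*, a subunit of the GABA-A receptor, was at 0, 0 and 3 at P4 and at 64, 57 and 76 at P7 (adjusted p = 0.00425), and the carboxypeptidase gene *Cpb1* at 1, 0 and 0 and at 71, 104 and 105 (adjusted p = 0.000154).

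*Serpina3a* had the largest fitted change, 9.68 on the log2 scale (SE 1.9, adjusted p = 0.00675), from 6, 4 and 7 normalized counts at P4 to 449, 22077 and 15484 at P7. Its relative *Serpina3c* was at 0 in all P4 libraries and at 9, 715 and 482 at P7 (adjusted p = 0.0348, and 0.0591 with the replicate block). P7 library 1 was far below the other P7 libraries for both, and *Serpina3c* was called only without that library (largest adjusted p = 0.115 otherwise; 0.131 with *Xist* as a covariate). These genes belong to a cluster of near-identical copies between which reads can be shared, so their separate levels are uncertain.

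Among genes with large falls, *Ffar4*, which encodes a receptor for long-chain fatty acids, was at 612, 444 and 916 normalized counts at P4 and at 0, 0 and 2 at P7 (adjusted p = 5.02e-05). *Slc52a3*, a riboflavin transporter, went from 893, 814 and 876 to 31, 18 and 55 (log2 fold change -4.73, SE 0.53, adjusted p = 0.00038). *Crabp1*, a binding protein for retinoic acid, fell from 2906, 4347 and 3256 to 288, 146 and 122 (-4.31, SE 0.40, adjusted p = 0.000155). *Qrfpr*, a neuropeptide receptor, was at 199, 172 and 231 at P4 and at 0, 11 and 8 at P7 (-5.39, SE 0.77, adjusted p = 0.00124), and *Masp2*, a protease of the complement system, at 113, 119 and 144 and at 4, 13 and 1 (-4.60, SE 0.64, adjusted p = 0.00109). No P7 library came near the P4 values of these 5 genes. *Tac4* (71, 134 and 96 at P4, 9, 7 and 0 at P7) and *Prss45* (88, 37 and 88, and 0, 3 and 8) were low, and were not called with *Xist* as a covariate (adjusted p = 0.0572 and 0.0548).

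Of the 15 genes that changed most in each direction, 6 of those higher and 6 of those lower were predicted genes or pseudogenes named with Gm or by their parent gene. *Gm20491* was at 529, 260 and 530 normalized counts at P4 and at 1, 1 and 2 at P7 (adjusted p = 7.66e-06), and *Gm10704* at 16, 10 and 11 and at 671, 921 and 406 (adjusted p = 5.02e-05). Such genes often share sequence with others, and their counts are uncertain for that reason. In the whole table, 112 genes were at 0 in all P4 libraries and above 0 in all P7 libraries, and 91 the reverse, but only 5 and 3 of them had a mean of at least 20 over the 11 libraries.

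The secreted factors *Bmp6*, *Gdf6* and *Otos* and the protease *Tmprss9* were picked out after the data were seen. *Bmp6*, a bone morphogenetic protein, was at 2903, 3810 and 3551 normalized counts at P4 and at 14907, 13677 and 18542 at P7 (log2 fold change 2.20, SE 0.25, adjusted p = 0.000386). *Gdf6*, of the same family, went from 387, 1579 and 624 to 7485, 8640 and 10350 (3.59, SE 0.39, adjusted p = 0.000343). *Otos*, which encodes otospiralin of fibrocytes and SCs, was at 628, 628 and 1106 at P4 and at 29086, 9665 and 4415 at P7 (3.82, SE 0.70, adjusted p = 0.0043). The P7 libraries differed several-fold for *Otos* but all lay above P4. *Tmprss9*, a transmembrane protease, rose from 1158, 1470 and 2106 to 31847, 34791 and 48219 (4.62, SE 0.41, adjusted p = 0.00014).

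The same ages can be compared in treated libraries, which share no pup with the untreated ones. The study's controls were littermates, so litter, day of dissection and handling may be shared between treated and untreated pups of an age. These had Sox2-CreER and 1 β-catenin allele open to loss of exon 3 in SCs and other Sox2-expressing cells, and sex was distributed the other way round, with *Xist* at 26, 13 and 22 normalized counts in the 3 P4 libraries and at 4180 and 3268 in the 2 P7 libraries. There, 998 genes (5.42%) were called higher at P7 and 1036 (5.63%) lower. Called in both were 764 higher genes, 44.3% of the untreated and 76.6% of the treated calls, and 745 lower genes, 38.5% and 71.9%. Of the genes called in untreated tissue, 1676 of 1726 (97.1%) and 1857 of 1933 (96.1%) had the same sign in treated tissue, with medians of 0.83 and 0.61 for the higher and -0.75 and -0.53 for the lower genes, and 3 and 4 were called in the opposite direction. The share with the same sign over all tested genes was not computed. Without P7 treated replicate 3, which left a single treated P7 library, 170 genes were called higher and 186 lower.

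Whether the change with age differed between untreated and treated tissue was tested directly. By the interaction term in limma, 0 of 18400 genes (0%) were called, while 1067 (5.80%) had an unadjusted p under 0.05, and the smallest adjusted p was 0.0546. *Cdkn1a* had a log2 fold change of 1.83 in untreated and 0.45 in treated tissue, *Slc17a8* of 2.39 and 1.04, and *Ocm* of 3.46 and 2.76. None of these differences was called. The study, which used DESeq2, did report an interaction of age and treatment at an adjusted p under 0.05 for several genes. *Cdkn1a*, *Lgr5* and *Hr* were among them. The immediate early list had 16 of 22 members called lower in treated tissue also, with a median of -1.78. The mitosis list had 11 of 32 called lower, with a median of -1.57, and the outer HC list 5 of 11 called higher. Not every list recurred to that extent. The inner HC list had 0 of 8 called in treated tissue, with a median of 0.15. The nuclear respiratory chain list had 1 of 82 called higher and 1 lower, with a median of -0.07. The imprinted list had 1 of 20 called higher and 2 lower.

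**Figure D4:**
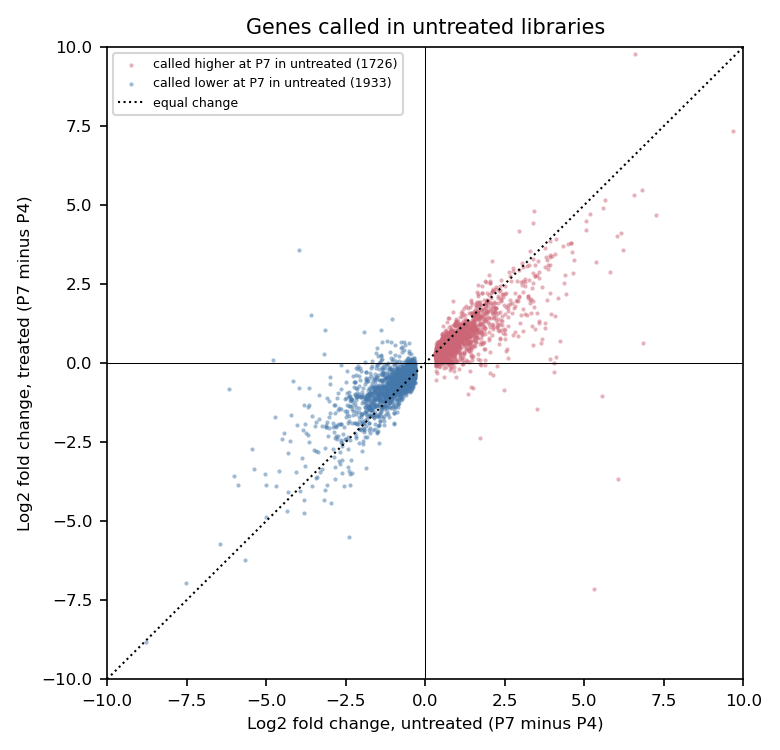
Log2 fold change (P7 minus P4) in treated libraries (vertical axis) against that in untreated libraries (horizontal axis) for the 1726 genes called higher (red) and 1933 called lower (blue) in untreated tissue; the line marks equal change. Most points lie in the quadrants of equal sign (97.1% of the higher and 96.1% of the lower genes).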

How the data were processed

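Cochlear RNA of 12 pups was sequenced after amplification with SMARTer V4, and 11 of the libraries are in the deposited table. Per the submitters' processing notes and the study's methods, the authors aligned reads to mm10 with STAR 2.5.2b and used FastQC and featureCounts for quality control, Sailfish and tximport for quantification, and DESeq2. Which counts the table was made from is not stated. The deposited values are whole numbers that follow the authors' normalization, so they were handled as a score on a normalized count scale and not as raw counts; the raw depth of each library is not known. Rounding and scaling before deposition make low values coarse.

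Values were taken as log2(normalized count + 1) for genes with a mean of at least 10 over the 11 libraries. A model with 4 group means was fitted to all 11 libraries with limma 3.58.1 (eBayes with a mean trend) in R 4.3.3, with Benjamini-Hochberg adjustment over 18400 genes, and was tested on simulated data. Summaries used Python 3.11.15 and pandas 2.3.3. Of 27755 entries, 1 repeated gene ID was left out. Each sample is a separate pup. The main fit did not pair libraries, and replicate numbers served as a block in an alternative fit only. In untreated libraries, deviations from the group means correlated at 0.135, 0.136 and 0.115 for the same number and at -0.111 to -0.021 otherwise. The labels do not say what a number stands for, and treated pairs correlated at 0.022 and -0.013.

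The comparison, its 43 gene lists (8 listed genes were not matched) and the rule for named genes were chosen with earlier results of these data known. Named were the key members of each list, up to 4 called members per list that changed most without overlap (mean of 20 or more over all libraries), the 15 genes that changed most in each direction, checks of sex and genotype, and genes at 0 in 1 age. Other genes are said to be named after their values were seen. Fold changes are coded P7 minus P4. Adding 1 understates the change of low genes, and no fold is given where all libraries of an age lay at 0 to 3, apart from the fitted values of *Gm5590*, given as such. Promoters came from RefSeq in GRCm38.p6 (32851 promoters of 27025 genes, 250 bases before the start searched), and gene coordinates from GENCODE M21. Alternatives covered the pseudocount, the minimum level, the trend, the scaling, the libraries fitted, *Xist* as a covariate, the replicate block, the thresholds and each library left out; weights per library and the comparison of P4 library 1 alone were added after seeing the data. A few members of the lists are counted but not reported singly here.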

Additional observations from a re-analysis of the deposited data

Results flagged for a closer look

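The search for opposite changes covered the named genes only, and not all 18400 tested genes. In a pair of the named genes every untreated library moved one way with age and every treated library the other way. *Lgr5* had a log2 fold change (P7 minus P4) of 0.39 in untreated and -0.40 in treated tissue, where it was at 8880, 8822 and 9331 normalized counts at P4 and at 7306 and 6352 at P7. The predicted gene *Gm5590* was at 0, 0 and 1 at P4 and 78, 81 and 90 at P7 in untreated tissue and at 2, 5 and 116 at P4 and 0 and 0 at P7 in treated tissue, with fitted values of 6.06 and -3.68 that depend on the pseudocount. The difference itself was not called for either (limma's interaction, adjusted p = 0.82 and 0.40). With DESeq2 the study did report *Lgr5* among the genes with an interaction of age and treatment.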

How the results depend on the processing

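The 1726 higher and 1933 lower calls in untreated tissue stayed within 1.5 times under every other pseudocount, minimum level, trend, scaling, weight and adjusted p tried. They did not with *Xist* as a covariate (940 and 867) or a fold over 2 (706 and 694). When single libraries were left out, 1136 to 1511 were called higher, fewest without P7 library 3, and 1251 to 1681 lower, fewest without P4 library 3. With the replicate block 1560 were called higher and 1730 lower, of which 1500 and 1654 were also called without it. Among 242 named genes the block removed 8 calls and added 2, and changed no other call. Median-of-ratios and quantile scaling moved the median of all genes from -0.02 to -0.004 and 0.002 and the share of calls that were higher from 47.2% to 49.9% and 52.2%. Leaving out a library removed 22 to 42 of the named calls, and *Xist* as a covariate 65; none reversed.

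Treated calls, 998 higher and 1036 lower, depended more on the setting. They were 447 and 422 with only the groups compared, 18 and 10 with *Xist* as a covariate, 662 and 664 with the replicate block, 381 and 378 at a fold over 2, and 1573 lower at an adjusted p under 0.1. When single libraries were left out they were 170 to 987 and 186 to 1049, with 269 and 265 without P7 treated replicate 1, 170 and 186 without P7 treated replicate 3, and 670 lower without P4 treated replicate 1; where 1 treated P7 library remained it was assumed to vary like the other groups. The interaction, called for 0 genes, was called for 1 with a pseudocount of 0.5, without trend, with quantile scaling or at an adjusted p under 0.1, for 2 with *Xist* as a covariate, and for 0 to 14 without single libraries, most without P7 treated replicate 3. It has no value with only the groups compared. The cause of these changes was not tested. Pups of 1 sex made up each treated age, so sex and age cannot be told apart there.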
